A study of Mus musculus with 4 samples.

Results

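The genes described here are 42 genes of mitosis, from the cyclin and kinase switch that starts division to the proteins that cut the dividing cell apart. They were taken by symbol from the 22222 rows of the deposited expression table, and all 42 symbols were found there. The table holds 4 RNA-seq libraries of keratoacanthoma, a skin tumour that can regress without treatment, raised in mice with 20 weeks of DMBA, a carcinogenic polycyclic hydrocarbon. In 2 mice the tumours were taken while DMBA went on (week 0), and in 2 other mice after 1 week without it. By the labels, every library came from cells sorted for Tomato, a fluorescent marker, and for P-cadherin, an adhesion protein of basal keratinocytes. However, the P-cadherin RNA was lowest in 1 library on DMBA (values further on). Fibroblast and myeloid markers were high in that library and in both 1-week libraries. The sources used here give neither strain, sex and age of the mice nor the driver of the Tomato label. DMBA treatment for 20 weeks was common to both groups, so neither is an untreated control. The comparison asks how far genes of dividing cells differed in the sorted cells 1 week after the carcinogen was stopped.

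Mitosis starts when Cdk1, bound to cyclin A or B, phosphorylates many proteins and thereby condenses the chromosomes and builds the spindle. Kinetochores then tie chromosomes to microtubules, a checkpoint holds the cell until each is tied, and the anaphase-promoting complex ends the phase by marking cyclin B and securin for destruction. Most of these genes are transcribed late in the cell cycle and are kept silent in resting cells by the DREAM complex, so their RNA is widely used as a sign of cycling cells. In the epidermis dividing cells lie mainly in the basal layer.

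The promoters are shown first because many mitosis genes are known to share regulatory letters. DREAM and the later B-Myb and FoxM1 complexes meet mitotic promoters at the cell cycle genes homology region (CHR), and the factor NF-Y binds the CCAAT box. The 150 bases before the annotated start of 6 genes are given 5′ to 3′ on the gene's strand, from RefSeq on GRCm38.p6, which is a later build than the mm9 named for the deposited data. Capitals mark the CHR core (TTTGAA or TTCGAA), the CCAAT box (CCAAT) and the E2F core (TTTCCCGC, TTTGGCGC or TTTCGCGC), each on either strand.
Ccnb1, chr13:100786487-100786636, strand -: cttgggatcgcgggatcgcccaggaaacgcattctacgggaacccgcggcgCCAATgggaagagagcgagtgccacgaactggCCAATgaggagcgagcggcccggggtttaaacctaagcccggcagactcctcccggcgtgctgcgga
Ccnb2, chr9:70421555-70421704, strand -: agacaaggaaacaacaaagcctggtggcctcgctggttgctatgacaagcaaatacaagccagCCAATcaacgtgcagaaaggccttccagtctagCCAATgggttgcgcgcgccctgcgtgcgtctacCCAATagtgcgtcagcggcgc
Cdk1, chr10:69352913-69353062, strand -: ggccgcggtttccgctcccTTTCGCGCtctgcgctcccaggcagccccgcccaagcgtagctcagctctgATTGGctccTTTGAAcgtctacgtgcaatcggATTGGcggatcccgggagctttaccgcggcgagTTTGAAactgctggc
Plk1, chr7:122159285-122159434, strand +: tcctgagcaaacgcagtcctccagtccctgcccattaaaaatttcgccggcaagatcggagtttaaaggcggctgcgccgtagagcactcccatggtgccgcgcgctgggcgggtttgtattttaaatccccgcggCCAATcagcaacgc
Cdc20, chr4:118437344-118437493, strand -: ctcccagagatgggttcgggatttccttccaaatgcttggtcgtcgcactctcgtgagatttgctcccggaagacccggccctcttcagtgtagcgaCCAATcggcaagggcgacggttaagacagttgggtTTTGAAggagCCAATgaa
Ube2c, chr2:164769779-164769928, strand +: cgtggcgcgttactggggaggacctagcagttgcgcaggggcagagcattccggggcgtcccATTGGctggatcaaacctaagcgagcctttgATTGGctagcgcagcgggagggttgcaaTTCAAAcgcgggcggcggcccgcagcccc

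The Cdc20 stretch carries a CHR core whose first letter lies at -18 from the start, between CCAAT boxes at -53 and -8. In Cdk1, CHR cores lie at -71 and -15, beside CCAAT boxes at -80 and -48 and an E2F core at -131. Another CCAAT box of Cdk1 lies outside the letters shown, at -208. Ube2c has a CHR core at -29 on the other strand, and CCAAT boxes at -88 and -57. More CCAAT boxes of Ube2c lie outside the letters shown, at -228, -186, -183 and -155. Ccnb2 shows CCAAT boxes at -87, -54 and -21, and its CHR cores lie outside the letters shown, at -167 and 5. Plk1 has a CCAAT box at -14 and its CHR core at 31, after the start. The Ccnb1 stretch holds CCAAT boxes at -99 and -67, and no CHR core was found in its window, which says only that these letters are not there.

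Windows of 300 bases, 250 before the start and 50 from it on, were found for 36 of the 42 genes. Of the 36, 28 (77.8%) held a CHR core, against 21.7% of all 27025 genes of the promoter table and 19.2% of its 32851 windows. A CCAAT box was in 26 (72.2%), against 41.1% of all genes and 37.4% of windows, and 2 or more in 19 (52.8%), against 13.3% of all genes. Both motifs stood in 23 (63.9%), against 8.61% of all genes and 7.52% of windows. The E2F core was in 3 (8.33%), against 2.12% of all genes and 1.84% of windows. Letters shared by overlapping windows of Prc1 and of Ect2 were counted once. Of 40 CHR matches 20 lay after the start, and in 15 genes, among them Plk1, Aurka and Kif23, all of them did. Of 62 CCAAT matches 2 lay after the start. Other mitosis genes, listed further on, shared these letters: of 91 of 113 with a window, 51.6% held a CHR core, 63.7% a CCAAT box, 39.6% both and 17.6% an E2F core. These shares describe letters, with no test, and a match is not a measured binding site.

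**Figure D1:**
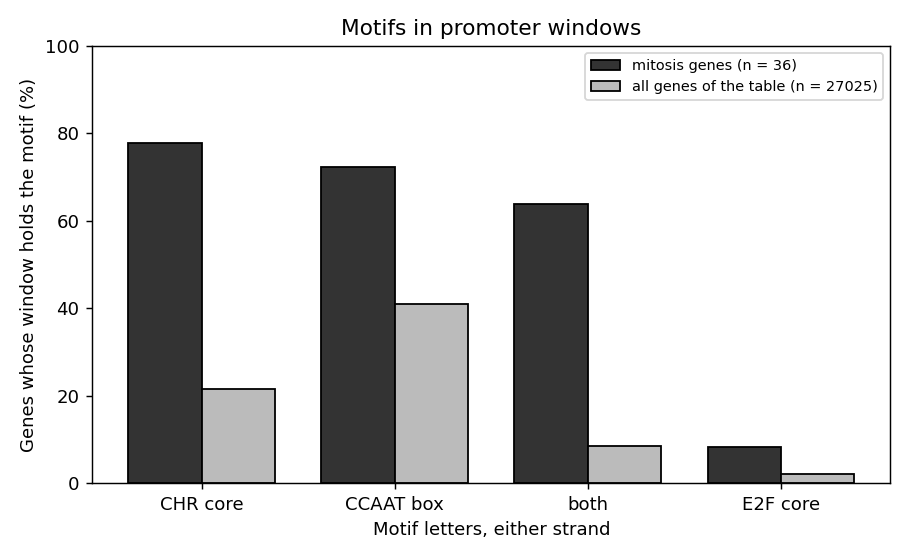
Share of genes (%) whose 300-base promoter window holds each motif on either strand, for the mitosis genes with a window (36, dark bars) and all genes of the promoter table (27025, light bars). The CHR core stood in 77.8% against 21.7%, and CHR core and CCAAT box together in 63.9% against 8.61%.

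All 42 genes had their highest level in the same library, on-DMBA replicate 1, and none of them passed the test between the groups. Of the 113 other mitosis genes, 107 were also highest in that library. Over all genes tested, 43.8% were higher in it than in both 1-week libraries, which leaves on-DMBA replicate 2 out of the comparison. Levels are scaled CPM, a gene's reads divided by a scaled library size, given for replicates 1 and 2 of each group in that order. The level in on-DMBA replicate 1 was 2.1 times (Kif2c) to 7.28 times (Cenpe) that of the next highest library, with a median of 3.39. In 32 of the 42 genes the lowest of all was on-DMBA replicate 2, the same group as the highest. This library was also the lowest in 67 of the 113 other mitosis genes. Of all genes tested, 34.6% were lower in this library than in both 1-week libraries, which leaves out on-DMBA replicate 1. How many of all genes were highest or lowest among all the libraries was not counted. Reads of the 42 genes made up 0.372% of all reads in on-DMBA replicate 1 (95% Wilson interval 0.368 to 0.376), and 0.0542% in on-DMBA replicate 2 (0.0524 to 0.0562). At 1 week they made up 0.0779% (0.0756 to 0.0803) in replicate 1 and 0.102% (0.0998 to 0.104) in replicate 2. The share was thus 6.86 times as high in replicate 1 as in replicate 2 on DMBA, and the 1-week shares were 1.44 and 1.88 times that of on-DMBA replicate 2.

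The libraries differed in depth and in the cell types they carried. They held 5551937 to 9678682 reads, and the 42 genes had 15 reads or more each in every library. The labels give the cells as epithelial and sorted for P-cadherin, and on-DMBA replicate 2 and both 1-week libraries went against this. In each of these libraries the summed fibroblast markers stood above the summed basal keratinocyte markers. Cdh3, the P-cadherin gene of the sort, was measured at 325 in on-DMBA replicate 1 and 3.23 in replicate 2, and at 42.8 and 30.4 after 1 week. All 12 basal keratinocyte markers were highest in on-DMBA replicate 1, and their summed level was 50526 in that library, 1015 in on-DMBA replicate 2, and 6210 and 4724 after 1 week. The sum over 8 suprabasal markers was 4027 there, against 17.2 in on-DMBA replicate 2 and 52.7 and 42.5 after 1 week. Both keratinocyte sums were lowest in on-DMBA replicate 2. Summed fibroblast markers (9 genes) were 225 in on-DMBA replicate 1, 41069 in replicate 2, and 46701 and 49177 after 1 week. Myeloid markers (10 genes) summed to 15.1 and 21451 under DMBA and 9306 and 14527 after 1 week, and endothelial markers (7 genes) to 6.29 and 179 under DMBA and 567 and 1202 after 1 week. Markers of other cell types were lowest, as sums, in on-DMBA replicate 1. The 8 measured T and NK cell markers summed to 1.78 and 32.8 under DMBA and 59.7 and 79.4 after 1 week, and of all these markers Gzmb alone was at 0, in on-DMBA replicate 1. The part of this makeup in the mitosis values was not tested. In bulk RNA fewer dividing cells and less of these RNAs per cell cannot be told apart.

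**Figure D2:**
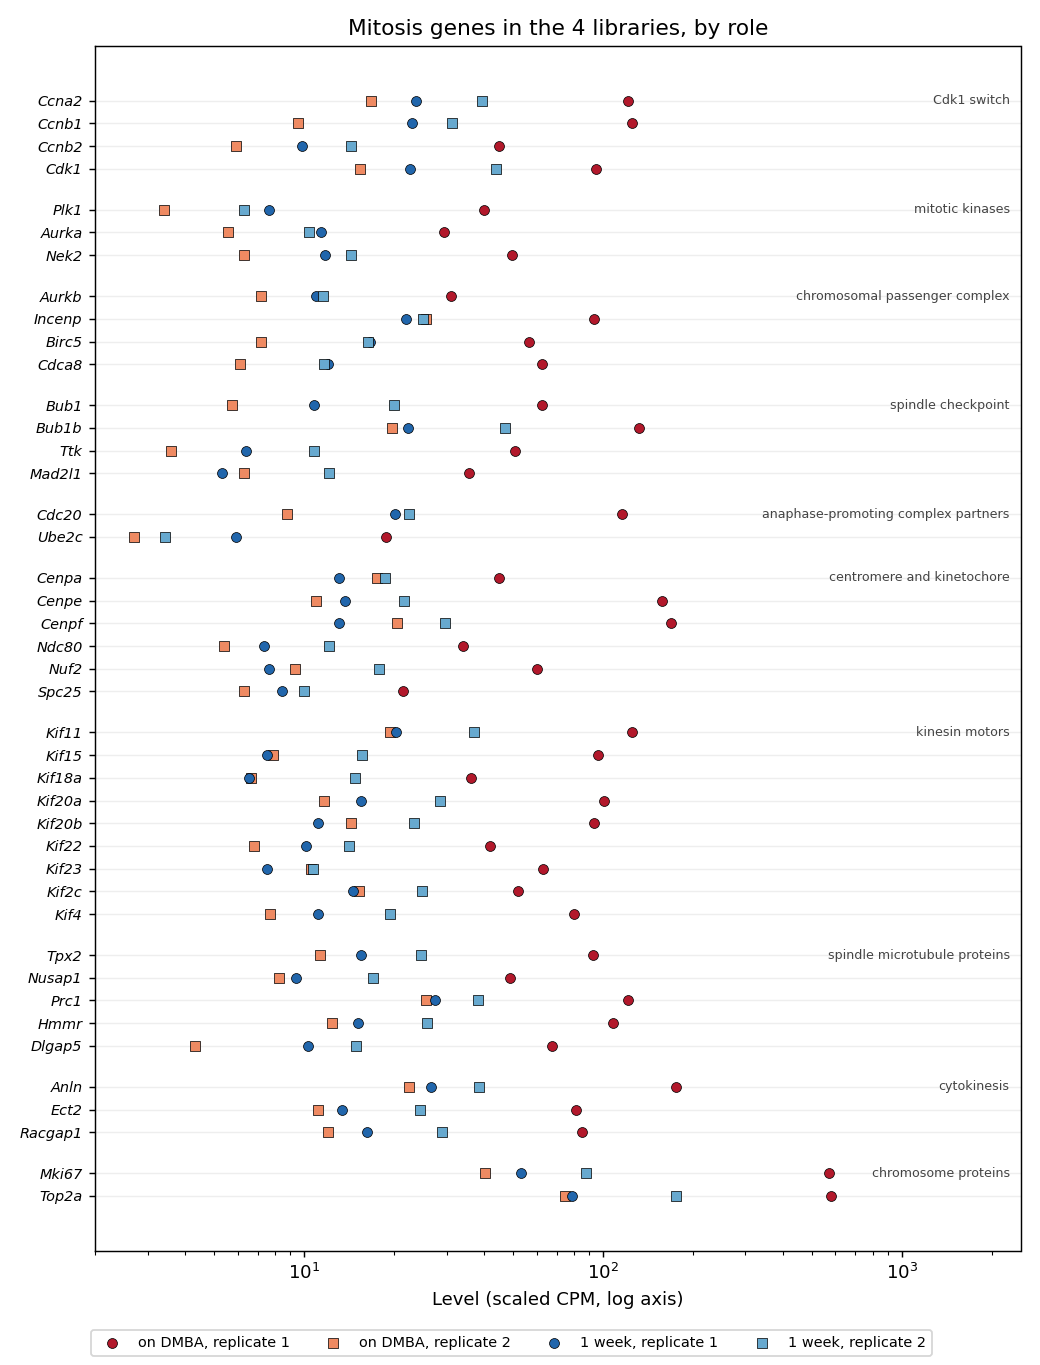
Level of each of the 42 mitosis genes (scaled CPM, log axis) in the 4 libraries, grouped by role, with 1 point per library. On-DMBA replicate 1 lies to the right of the other 3 libraries in every gene, by 2.1 to 7.28 times over the next, and on-DMBA replicate 2 is the lowest in 32 of the 42.

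The switch that starts mitosis showed the pattern in all 4 of its genes. Cdk1, the kinase of the switch, stood at 95.2 and 15.4 under DMBA and at 22.7 and 43.8 after 1 week, and Ccna2, the cyclin that acts from S phase into early mitosis, at 122 and 16.7 against 23.8 and 39.5. Of the B cyclins, Ccnb1 had 126 and 9.51 under DMBA and 23.0 and 31.4 after 1 week, and Ccnb2 44.8 and 5.92 against 9.85 and 14.4. In each of these genes both 1-week libraries lay between the libraries on DMBA, so the groups overlapped. The fitted log2 difference, 1 week minus on DMBA, was -0.29 (SE 0.98) for Cdk1 and -0.56 (SE 1.02) for Ccna2. Each adjusted p, here and for every one of the 42 genes, was 1.00 in limma with Benjamini-Hochberg adjustment. Ccnb1 and Ccnb2, and likewise Aurkb, Kif22 and Kif4, have pseudogenes named after them, with which reads may have been shared.

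Kinases of spindle assembly lay in the same order at the top and bottom, and 2 of the 3 were lower in 1-week replicate 2 than in 1-week replicate 1. Plk1, a kinase of centrosome maturation and mitotic entry, was measured at 40.1 and 3.41 under DMBA and at 7.66 and 6.28 after 1 week. Aurka, the centrosomal Aurora kinase, had 29.4 and 5.56 under DMBA and 11.4 and 10.4 after 1 week. Nek2, a kinase of centrosome separation, had 49.8 and 6.28 against 11.7 and 14.4. All 3 genes overlapped between the groups, with log2 differences of -0.76 (SE 1.21) for Plk1 and -0.24 (SE 0.92) for Aurka, the smallest difference among the 42.

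The chromosomal passenger complex, which corrects wrong attachments and later sets up the cleavage site, held the single gene without overlap. Its scaffold Incenp had 93.5 and 25.7 under DMBA and 21.9 and 25.1 after 1 week, and both 1-week values lay just under on-DMBA replicate 2. Its log2 difference was -1.05 (SE 0.75). The kinase Aurkb had 31.0 and 7.18 under DMBA and 10.9 and 11.6 after 1 week, and the targeting subunit Birc5 (survivin) had 56.6 and 7.18 against 16.6 and 16.4, with a log2 difference of -0.30 (SE 1.04). Cdca8 (borealin) had 62.8 and 6.10 against 12.0 and 11.7. For these 3 genes the 1-week libraries were near each other and between the libraries on DMBA.

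The spindle checkpoint genes were spread more widely at 1 week. Bub1, a kinase of the checkpoint, had 62.5 and 5.74 under DMBA and 10.8 and 20.0 after 1 week, a log2 difference of -0.38 (SE 1.20), and its partner Bub1b had 132 and 19.7 against 22.3 and 47.2. Ttk, the kinase that starts checkpoint signalling, had 50.8 and 3.59 against 6.41 and 10.8. Mad2l1, which holds back Cdc20, had 35.6 and 6.28 under DMBA and 5.31 and 12.1 after 1 week, a log2 difference of -0.87 (SE 1.01). In all 4 genes 1-week replicate 2 was above 1-week replicate 1.

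Partners of the anaphase-promoting complex were the pair of genes with the largest ratio of 1-week replicate 1 to on-DMBA replicate 2 among the 10 roles, 2.25 at the median. The activator Cdc20 had 116 and 8.79 under DMBA and 20.2 and 22.4 after 1 week, a log2 difference of -0.60 (SE 1.24). The ubiquitin-conjugating enzyme Ube2c had 18.9 and 2.69 against 5.94 and 3.42, a log2 difference of -0.65 (SE 1.06). Ube2c rested on 159 and 15 reads under DMBA and 38 and 24 after 1 week. Its 95% Poisson interval in scaled CPM was 4.20 to 8.15 in 1-week replicate 1 and 2.19 to 5.09 in 1-week replicate 2, and those intervals overlap.

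In centromere and kinetochore genes the median ratio to on-DMBA replicate 2 was 1.04 for 1-week replicate 1 and 1.75 for 1-week replicate 2. Cenpf, a large kinetochore protein of late G2 and mitosis, had 169 and 20.5 under DMBA and 13.1 and 29.5 after 1 week, and its log2 difference of -1.56 (SE 1.11) was the largest of the 42. The centromeric histone Cenpa had 45.0 and 17.6 against 13.1 and 18.7, and the kinetochore motor Cenpe had 158 and 10.9 against 13.8 and 21.7. For Cenpf and Cenpa, and for Nuf2 below, 1-week replicate 1 lay under both libraries on DMBA while 1-week replicate 2 lay above on-DMBA replicate 2. Of the Ndc80 complex, which grips the microtubule end, Ndc80 had 34.0 and 5.38 under DMBA and 7.35 and 12.1 after 1 week. Nuf2 had 60.3 and 9.33 against 7.66 and 17.8, and Spc25 had 21.4 and 6.28 against 8.44 and 9.98, a log2 difference of -0.33 (SE 0.80). All 3 subunits overlapped between the groups.

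The 9 kinesins, motors that slide, shorten or carry microtubules and chromosomes, had a median ratio of 0.99 between 1-week replicate 1 and on-DMBA replicate 2, and of 1.99 between 1-week replicate 2 and on-DMBA replicate 2. Kif23, the motor of the central spindle, had 63.2 and 10.6 under DMBA and 7.50 and 10.7 after 1 week, a log2 difference of -1.49 (SE 0.97) and, with 0.182, the smallest unadjusted p of the 42 in limma. Kif11, which pushes the spindle poles apart, had 126 and 19.4 against 20.3 and 36.9, and Kif15, which can do the same work, 96.4 and 7.90 against 7.50 and 15.7. Both overlapped between the groups, and 1-week replicate 2 was the higher of the 1-week libraries. Kif20a, which brings the passenger complex to the midzone, had 101 and 11.7 under DMBA and 15.5 and 28.5 after 1 week, and its relative Kif20b had 93.2 and 14.4 against 11.1 and 23.4. Kif4, which shapes condensed chromosomes and the midzone, had 79.8 and 7.72 against 11.1 and 19.4. Kif22, a motor on chromosome arms, had 41.9 and 6.82 against 10.2 and 14.1, a log2 difference of -0.50 (SE 0.97). The microtubule depolymerase Kif2c had 52.0 and 15.3 under DMBA and 14.5 and 24.8 after 1 week, and Kif18a, which damps chromosome movement, had 36.1 and 6.64 against 6.56 and 14.8. Of these kinesins, 5 (Kif15, Kif18a, Kif20b, Kif23 and Kif2c) were lower in 1-week replicate 1 than in on-DMBA replicate 2, and in all 9 the 1-week replicate 2 value was above it.

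Spindle microtubule proteins followed the commonest order. Tpx2, which activates Aurka and nucleates microtubules, had 92.9 and 11.3 under DMBA and 15.5 and 24.7 after 1 week, and Nusap1, a microtubule bundling protein, 48.9 and 8.26 against 9.38 and 17.0. Prc1, the crosslinker of the midzone, had 121 and 25.7 against 27.5 and 38.2, a log2 difference of -0.78 (SE 0.85). In these genes the order from high to low was on-DMBA replicate 1, 1-week replicate 2, 1-week replicate 1 and on-DMBA replicate 2. Hmmr, a spindle protein that also binds hyaluronan, had 108 and 12.4 under DMBA and 15.2 and 25.8 after 1 week. Dlgap5, which stabilises spindle fibres near kinetochores, had 67.8 and 4.31 against 10.3 and 15.0, a log2 difference of -0.49 (SE 1.32), and its ratio of 15.7 between the libraries on DMBA was the largest of the 42.

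Cytokinesis genes and the chromosome proteins kept that order too. Anln (anillin), a scaffold of the contractile ring, had 175 and 22.4 under DMBA and 26.6 and 38.5 after 1 week, a log2 difference of -0.97 (SE 1.04). Ect2, an exchange factor that acts at the cleavage site, had 81.6 and 11.1 against 13.4 and 24.4, and Racgap1, its partner at the midzone, 85.0 and 12.0 against 16.3 and 29.0, a log2 difference of -0.56 (SE 1.03). The groups overlapped in all 3. Mki67, the coat of mitotic chromosomes and a common proliferation marker, had 572 and 40.4 under DMBA and 53.3 and 88.0 after 1 week, a log2 difference of -1.15 (SE 1.29). Top2a, which untangles sister chromosomes, had 582 and 74.7 against 78.8 and 176, a log2 difference of -0.82 (SE 1.09). Both were several times higher in on-DMBA replicate 1 than in any other library, and in the other 3 libraries 1-week replicate 2 was the highest.

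Between the groups the test called 0 of the 42 genes, and 0% of the 15419 genes tested (adjusted p under 0.05 in limma). At an unadjusted p under 0.05 stood 0 of the 42, and 352 genes higher and 30 lower over all. On reads recovered from the deposited values, edgeR's quasi-likelihood test and DESeq2 also called 0 of the 42, and both gave 0 at an unadjusted p under 0.05. Every fitted difference was below 0, from -1.56 to -0.24 with a median of -0.71, beside a median of -0.02 over all genes tested. All 42 stayed below 0 in each of the other scalings tried. In single libraries, 1 gene, Incenp, had both 1-week values below both values on DMBA, which 9.14% of all genes tested had. None of the 42 was higher without overlap, against 14.0% of all genes.

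The sign of most of these differences rested on 1 library, on-DMBA replicate 1, and for Cdk1 and Bub1 it also turned without 1-week replicate 1. Without on-DMBA replicate 1, 38 of the 42 genes were higher at 1 week and 4 lower (Incenp, Cenpa, Cenpf and Kif23), with a median log2 difference of 0.69 and a highest value of 1.45 for Ccnb1. In that fit limma called 0 of the 42 higher (lowest adjusted p = 0.154), against 2.35% of all genes. Without on-DMBA replicate 2 all 42 were lower, with a median of -2.11 and a range of -3.15 (Cenpe) to -1.18 (Spc25). In that fit 41 of the 42 were called lower, against 10% of all genes (1549), and the exception was Spc25 (adjusted p = 0.114 in limma). Each of these fits set 1 library on DMBA against 2 at 1 week and took the lone library to vary like the other group. The median was -0.33 without 1-week replicate 1 and -1.06 without 1-week replicate 2, with no call in either, and on recovered reads it was -1.22 in edgeR and -1.27 in DESeq2.

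**Figure D3:**
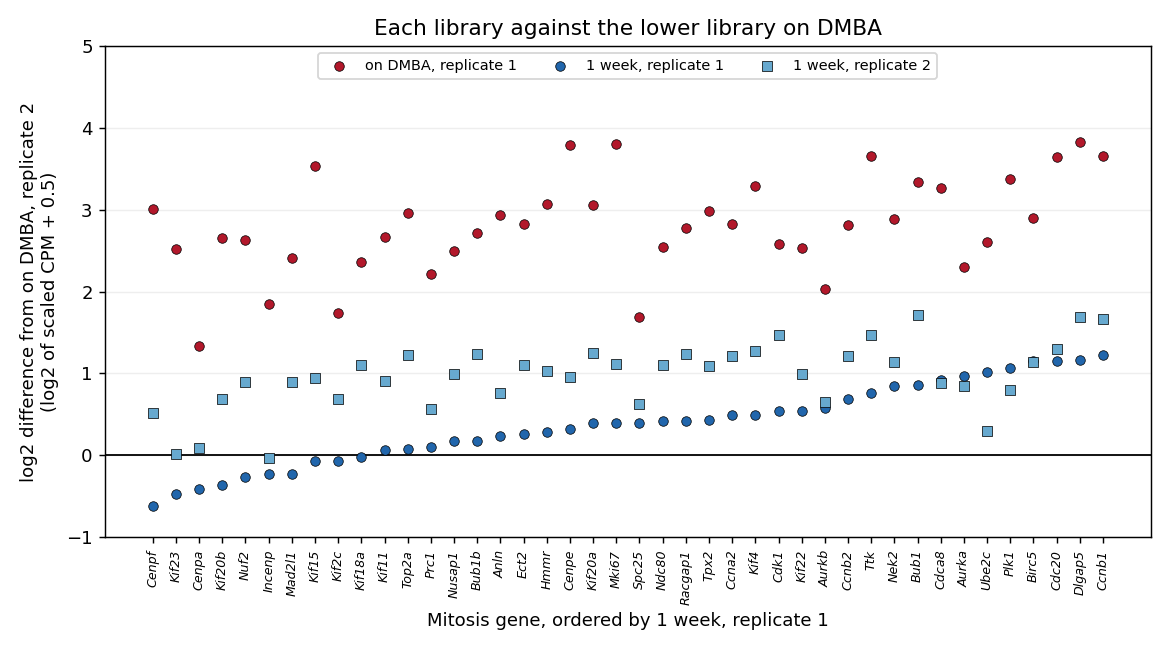
Log2 difference of on-DMBA replicate 1 and of both 1-week libraries from on-DMBA replicate 2, on log2(scaled CPM + 0.5), for the 42 mitosis genes ordered by 1-week replicate 1. The on-DMBA replicate 1 points lie between 1.33 (Cenpa) and 3.83 (Dlgap5), and the 1-week points between -0.62 (Cenpf) and 1.71 (Bub1).

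Pairs of libraries put sizes on this. On-DMBA replicate 1 was higher than on-DMBA replicate 2 in 42 of 42 genes, by a median of 2.82 on the log2 scale. Over all genes tested the median was 0.05, and 51.2% were higher. Against on-DMBA replicate 2, 1-week replicate 1 was higher in 32 genes and lower in 10, with a median of 0.40, and 1-week replicate 2 was higher in 41 and lower in 1 (Incenp), with a median of 1.01. The same pairs gave medians of -0.02 and 0.13 over all genes, of which 49.2% and 59.3% were higher. Between the 1-week libraries, replicate 2 was higher in 37 genes and lower in 5: Plk1, Aurka, Birc5, Cdca8 and Ube2c. The median was 0.70, beside 0.22 over all genes, of which 62.9% were higher in replicate 2. The order from high to low of on-DMBA replicate 1, 1-week replicate 2, 1-week replicate 1 and on-DMBA replicate 2 held in 27 of the 42. How many of all genes had this order was not counted. Poisson intervals, which cover counting error only, lay apart from those of on-DMBA replicate 2 in 12 of the 42 genes for 1-week replicate 1 and in 35, all higher, for 1-week replicate 2. They lay apart in 25 between the 1-week libraries and in all 42 between the libraries on DMBA. Intervals were not compared over all genes, so these counts have no share of all genes beside them and describe no trait particular to the 42.

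Each gene was also read as a share of the reads of the 42, and 4 genes are given, chosen after their shares were seen. Cenpf took 3.94% (Wilson interval 3.75 to 4.15) and 3.73% (3.11 to 4.46) of them under DMBA, against 1.94% (1.57 to 2.40) and 2.65% (2.31 to 3.03) after 1 week. These intervals cover counting error only and not the spread between mice. Kif23 took 1.48% and 1.93% under DMBA against 1.11% and 0.96% after 1 week, and Cdk1 2.23% and 2.81% against 3.35% and 3.93%. For Kif23 the interval of 1-week replicate 1 (0.84 to 1.47) overlapped that of on-DMBA replicate 1 (1.36 to 1.61). For Cdk1 the interval of 1-week replicate 1 (2.85 to 3.93) overlapped that of on-DMBA replicate 2 (2.28 to 3.46). Of the 42 genes only Cenpf had both 1-week intervals apart from both on DMBA. The share of Mki67 was 13.4% in on-DMBA replicate 1 and 7.36%, 7.88% and 7.89% in on-DMBA replicate 2 and 1-week replicates 1 and 2. A share depends on the other genes of the set, and these differences were not tested.

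Other genes of mitosis were read from a list of 113, all measured and all past the filter on low values. Of them 0 passed the test in either direction, 105 had a difference below 0 and 8 above, and the median was -0.46. Of the 113, 6 (5.31%) were lower at 1 week without overlap, against 9.14% of all genes, and 0 were higher, against 14.0%, so the lower share was under that of all genes. Foxm1, a forkhead activator of late cell cycle genes, had 24.5 and 3.59 under DMBA and 8.91 and 7.56 after 1 week, a log2 difference of -0.21 (SE 1.01). Mybl2, the B-Myb factor that works with it, had 21.1 and 2.69 against 10.6 and 6.99, a log2 difference of 0.14 (SE 1.07), which turned to -0.34 in edgeR and -0.38 in DESeq2. Both overlapped between the groups. The smallest p values of the list belonged to Arhgap11a, Smc3, a ring subunit of cohesin, and Oip5, which helps to load Cenpa. Arhgap11a had 65.2 and 33.0 under DMBA and 20.3 and 21.8 after 1 week (-1.12, SE 0.58), Smc3 167 and 66.9 against 38.8 and 65.2 (-1.06, SE 0.66), and Oip5 10.2 and 2.87 against 0.78 and 2.85 (-1.54, SE 0.95). These 3, with Cdc25b, Anapc13 and Fzr1, the last 3 named after their values were seen, were the genes without overlap.

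The library medians of the subunits and regulators of the anaphase-promoting complex itself varied little beside those of the 42 mitosis genes. The median of these 15 genes in log2(scaled CPM + 0.5) was 6.01 and 5.36 under DMBA and 5.15 and 5.56 after 1 week, a span of 0.86. The median of the 42 mitosis genes was 6.21 and 3.31 under DMBA and 3.71 and 4.33 after 1 week, a span of 2.90. Most subunits of the complex are known to be made throughout the cell cycle. The difference between these spans was not tested.

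**Figure D4:**
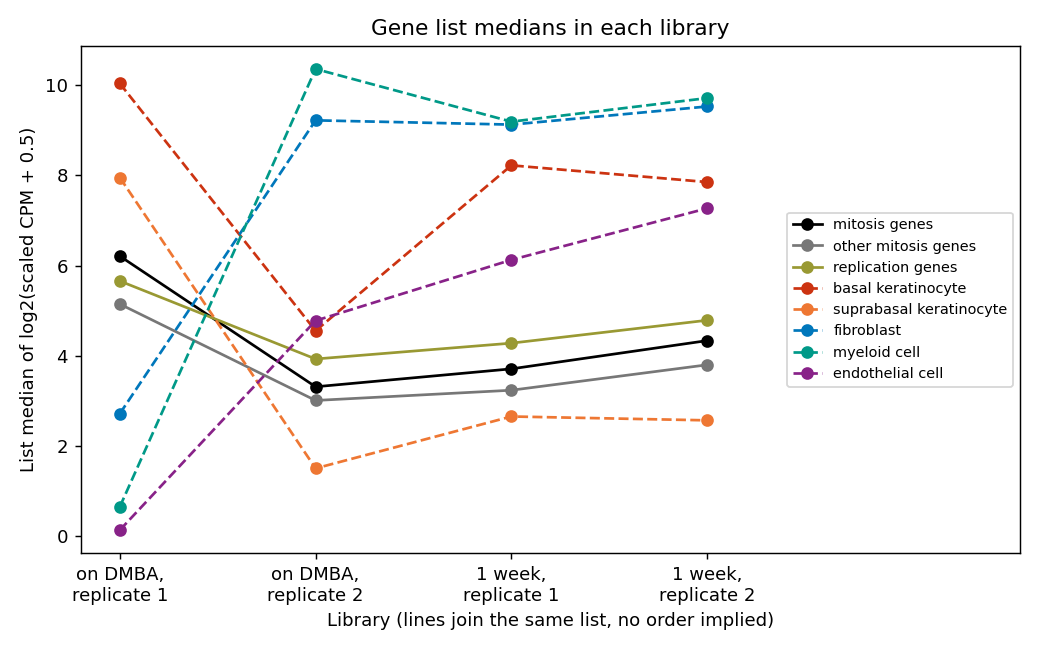
Median of log2(scaled CPM + 0.5) over each gene list in the 4 libraries, with solid lines for cell cycle lists and dashed lines for cell type markers. The mitosis genes run from 6.21 in on-DMBA replicate 1 to 3.31 in on-DMBA replicate 2, and the basal keratinocyte markers from 10.04 to 4.55, while the fibroblast, myeloid and endothelial markers are lowest in on-DMBA replicate 1.

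Genes with and without the CHR core were set side by side. The 28 with the core had a median log2 difference of -0.73 between the groups and a median ratio of 7.20 between the libraries on DMBA. The 8 without it (Ccnb1, Nek2, Birc5, Mad2l1, Cenpe, Nuf2, Kif18a and Nusap1) had -0.65 and 7.18. The ranges of the ratio were 2.56 to 14.2 and 5.44 to 14.4, and no test was made.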

How the data were processed

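RNA was sequenced from sorted tumour cells of 4 mice, 2 per group, after ribosomal RNA removal with a strand-marking protocol, per the labels' protocols. Per the submitters' processing notes, mm9 was the build, and the tools included TopHat2 2.1 and CASAVA 1.8.2 besides edgeR 3.2.3 and HTSeq. Neither the annotation nor the strand setting of the counting is stated in those sources.

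The authors deposited 1 table of normalised signal per gene and library, which they call CPM. The columns do not sum as plain CPM would, so the values are called scaled CPM here. For 100% of genes the value was a whole multiple of the worth of 1 read, which was 0.119, 0.179, 0.156 and 0.143 scaled CPM (on-DMBA replicates 1 and 2, 1-week replicates 1 and 2; tolerance 0.01 reads). This gave 9678682, 5635945, 5551937 and 7662159 recovered reads. A floor of 3 reads is 0.356, 0.538, 0.469 and 0.428 scaled CPM.

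Genes at 1 scaled CPM or more in 2 libraries (15419, all 42 members among them) were fitted with limma 3.58.1 in R 4.3.3 (eBayes with trend) on log2(scaled CPM + 0.5), which understates changes of low genes, two-sided, with a threshold of 0.05 on p after Benjamini-Hochberg adjustment across the table. The design had planned for plain CPM and the test was kept. An exact permutation test of 2 against 2 cannot go below 0.333. The alternatives were other pseudocounts, filters, scalings and eBayes options, a replicate block, leaving out each library (same 15419 genes), and edgeR 4.0.16 and DESeq2 1.42.0 on recovered reads. The tests were run on simulated counts beforehand. Every member was named. Fitted differences were given for the smallest and largest p in each of 10 roles, for Mki67 and Cdk1, and for 6 listed genes by a similar rule. The members and lists were chosen with earlier results of these data known.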

Additional observations from a re-analysis of the deposited data

How the results depend on the processing

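With the 2 mice per group, limma with all 4 libraries called 0 genes (p under 0.05 before adjustment: 352 up, 30 down). Of the 16 alternatives, those with calls were the replicate block (288 genes, 285 of them higher), DESeq2 (19 genes), and the fits without on-DMBA replicate 1 (516) or 2 (3761), so that leaving out 1 library gave 0 to 3761 genes. The count of members called was 0 except for 0 to 41 with a library left out. Members without overlap were 1, or 3 each with plain CPM, median ratio scaling and quantile normalization, and 1 to 42 with a library left out. In those 3 scalings all were lower at 1 week, against 8.17%, 12.4% and 17.4% of all genes. Without on-DMBA replicate 2 all 42 were lower, against 43.8% of all genes. Without on-DMBA replicate 1, 32 were higher and 1 lower, against 34.6% and 26.1%. Without 1-week replicate 1, 1 was lower, against 17.2%, and without 1-week replicate 2, 10 were lower, against 31.2%. The median of the members ranged from -2.11 to 0.69 and that of the other mitosis genes from -1.53 to 0.44 with a library left out. Plain CPM moved the median of all genes from -0.02 to 0.11 and quantile normalization to -0.15, with the members at -0.57 and -0.71. The replicate block left the members' median at -0.71 and called 0 of them. Same-numbered libraries come from different mice, and over genes their deviations from the group means correlated at 0.015.

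Of the 26 genes with a fitted difference, 19 turned sign with a library left out, Mybl2 also in edgeR (-0.34) and DESeq2 (-0.38). Their ranges over the fits of 3 libraries were, for the entry genes, -1.97 to 0.86 (Ccna2), -1.58 to 1.01 (Cdk1), -2.45 to 0.93 (Plk1) and -1.39 to 0.91 (Aurka). For the passenger, checkpoint and kinetochore genes they were -1.75 to 1.15 (Birc5), -2.08 to 0.34 (Mad2l1), -2.05 to 1.28 (Bub1) and -1.18 to 0.51 (Spc25), and for the partners of the anaphase-promoting complex -1.95 to 0.65 (Ube2c) and -2.42 to 1.23 (Cdc20). For spindle and division genes they were -1.76 to 0.77 (Kif22), -1.88 to 0.33 (Prc1), -2.40 to 1.43 (Dlgap5), -2.43 to 0.50 (Anln) and -1.94 to 0.83 (Racgap1). For the rest they were -3.05 to 0.76 (Mki67), -2.30 to 0.65 (Top2a), -1.52 to 1.09 (Foxm1) and -1.25 to 1.52 (Mybl2). The library whose loss turned the sign was on-DMBA replicate 1 for all but Mybl2, for Cdk1 and Bub1 also 1-week replicate 1, and for Mybl2 on-DMBA replicate 2 or 1-week replicate 1. The cause of these turns was not tested. Incenp, Cenpf, Kif23, Arhgap11a, Smc3, Oip5 and Pola1 stayed below 0 in all settings tried. Depth limited the lowest genes most: Ube2c had 15 reads in on-DMBA replicate 2. Oip5 was lower still, at 0.78 scaled CPM in 1-week replicate 1, where 3 reads are 0.469.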

Other observations

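Genes of DNA replication act in the S phase before mitosis. The median of 24 replication licensing and fork genes in log2(scaled CPM + 0.5) was 5.66 and 3.93 under DMBA and 4.28 and 4.79 after 1 week, and all 24 were highest in on-DMBA replicate 1. The lowest library was on-DMBA replicate 2 in 13 of the 24 and 1-week replicate 1 in 11, beside 32 and 10 of the 42 mitosis genes. Between the groups their median log2 difference was -0.35, with 22 below 0, 2 above and 0 past the test in limma. Pola1, the catalytic subunit of DNA polymerase alpha, had the smallest p of the list, with 159 and 52.4 under DMBA and 20.0 and 49.8 after 1 week, a log2 difference of -1.51 (SE 0.79). Without overlap of the groups, 2 of the 24 (8.33%) were lower at 1 week, Pola1 and Rfc3, the second named after its values were seen, a share near the 9.14% of all genes tested.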
